A study of Mus musculus with 67 samples.

Results

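The solute carrier (Slc) transporters were followed in the cerebral cortex of C57BL/6 mice across age, diet and sex. They were taken as the genes whose symbol in the platform annotation starts with Slc and a digit, using probes with exactly 1 symbol, and where a gene had several probes the one whose mean over all arrays was highest. This gave 63 genes of the 4209 genes that had a probe with 1 symbol, after 3 genes of the family were left out by the same rule. By family they were 10 amino acid carriers, 2 neurotransmitter carriers, 5 glucose and sugar carriers, 20 ion carriers, 8 mitochondrial carriers of the Slc25 family and 18 others, which move vitamins, nucleosides, lipids, choline, urea and organic ions.

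Radiolabelled cDNA of 67 mice was hybridised to 67 filters of 8448 cDNA probes, 1 mouse to a filter. Mice fed ad libitum (AL) were 17-21 days old (2 males, 3 females), 33-44 days old (3 males, 2 females), or 6, 16 or 24 months old, with 5 males and 5 females in each of these adult groups. Mice on caloric restriction (CR) were 6 months old (4 males, 5 females), 16 months old (5 males, 5 females) or 24 months old (3 males, 5 females), and their feed had been cut after 13 weeks in steps to 90%, 75% and then 60% of the full amount. The 3 CR males of the oldest group were all 673 days old, where the AL males of that group were 714 to 743 days old. All the mice were of 1 strain, with no engineered allele named in the labels, and cortex was used as tissue, so that fewer cells of a type and less RNA per cell cannot be told apart.

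Solute carriers are membrane proteins that move small molecules and ions across the plasma membrane, organelles and the inner mitochondrial membrane, mostly driven by gradients of sodium, protons or the substrate itself. In the brain they supply neurons with glucose and amino acids, clear and package neurotransmitters, hold the chloride gradient on which inhibition depends, and pass glutamine from astrocytes to neurons. Mitochondrial Slc25 carriers pass phosphate, glutamate, cofactors and iron between the cytosol and the matrix.

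The deposited value is a z-score, the log intensity of a spot expressed in standard deviations (SDs) from the mean of its own array. A z-score places a probe among the spots of 1 filter and does not give a fold change, and it was not used to set one gene above another. Of the 63 carriers, 24 had a mean z above 0, which is 38.1%, where 49.3% of all probes did. Differences below are in z units and come from limma, with a mean for each of 16 groups of age, diet and sex fitted over all 67 arrays and the sexes given equal weight, so they can differ slightly from the difference of the pooled means.

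Before the comparisons, 3 features of the arrays bear on every carrier. Arrays numbered 1 to 45 and arrays numbered 46 to 67, called the earlier and the later set here, formed separate clusters, and the labels give no reason for this break. The earlier set held 45 arrays, among them all 5 of 17-21 days, and the later set held 22. A pair of 16 months AL arrays, male replicate 2 and female replicate 2, had identical values for 42 of the 63 carriers and differed by at most 0.12 in the others. This pair correlated at 0.99975 over all probes, the next closest pair of arrays at 0.989, and it was counted as 1 sample in means, SDs and n. The limma fits hold both of its arrays, as a male and a female, so p values of comparisons with 16 months AL count them as 2 samples, and values without the pair are given beside the carriers it moves. Spots that lie close together on the filter also deviated together.

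The array set held a median of 31.6% of the variance over arrays in the 63 carriers, against 29.2% over all probes, and the groups held a further 15.1%, against 15.3%. A split into groups takes up some variance from noise alone, and that share was not worked out. The group share is therefore not read as an effect of age, diet or sex. In 18 carriers the array set held more than 50%, and in 12 it held under 5%. The shares of all probes beyond these limits were not counted. The zinc carrier Slc30a3 (ZnT3), which loads zinc into the synaptic vesicles of glutamatergic neurons, lay between -0.68 and 0.19 in the earlier arrays (median -0.29) and between 0.25 and 0.74 in the later arrays (median 0.56). Its earlier and later arrays did not overlap, and 3 other carriers shared this property. They were the mitochondrial S-adenosylmethionine carrier Slc25a26 (medians -0.13 and -0.90), the fatty acid carrier Slc27a4 (medians -0.28 and 0.78) and the sugar carrier Slc50a1 (medians -0.17 and 0.27). Slc25a26 was lower in the later set and the others were higher. How many of all probes had no overlap between the sets was not counted, so it is not read as particular to carriers. In contrast, the magnesium carrier Slc41a3 had a median of -1.25 in both sets, and the mitochondrial folate carrier Slc25a32 had medians of -0.13 and -0.14.

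**Figure D1:**
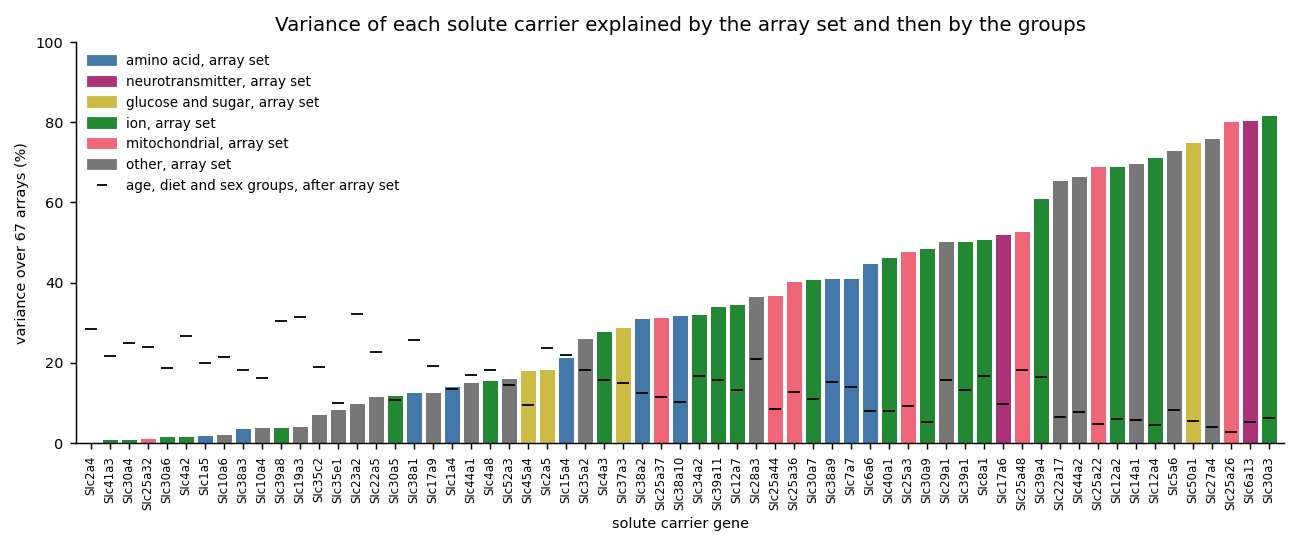
Percent of the variance over 67 arrays (vertical axis) that the array set held in each of the 63 carriers (bars, coloured by class), and the percent that the 16 groups of age, diet and sex held after it (black dashes). The bars run from under 5% in 12 carriers to over 50% in 18, and Slc30a3, Slc6a13 and Slc25a26 stand at the right end. Neither the counts over all probes nor the group share expected from noise was worked out.

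Across 14 comparisons of age, diet and sex, 0 of the 63 carriers passed an adjusted p of 0.05 in limma. Over all 8448 probes, 8 passed (0.0947%) between 33-44 and 17-21 days, and 0 passed (0.0%) in each of the other 13 comparisons. The counts at an unadjusted p under 0.05 are given for each comparison, and a carrier in such a count is described by its values, since it was not called. The intervals show what these arrays could resolve: at the median carrier the 95% interval reached 0.28 to either side between the youngest groups, 0.19 between adult ages of AL mice, and 0.12 for diet over 3 ages.

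**Figure D2:**
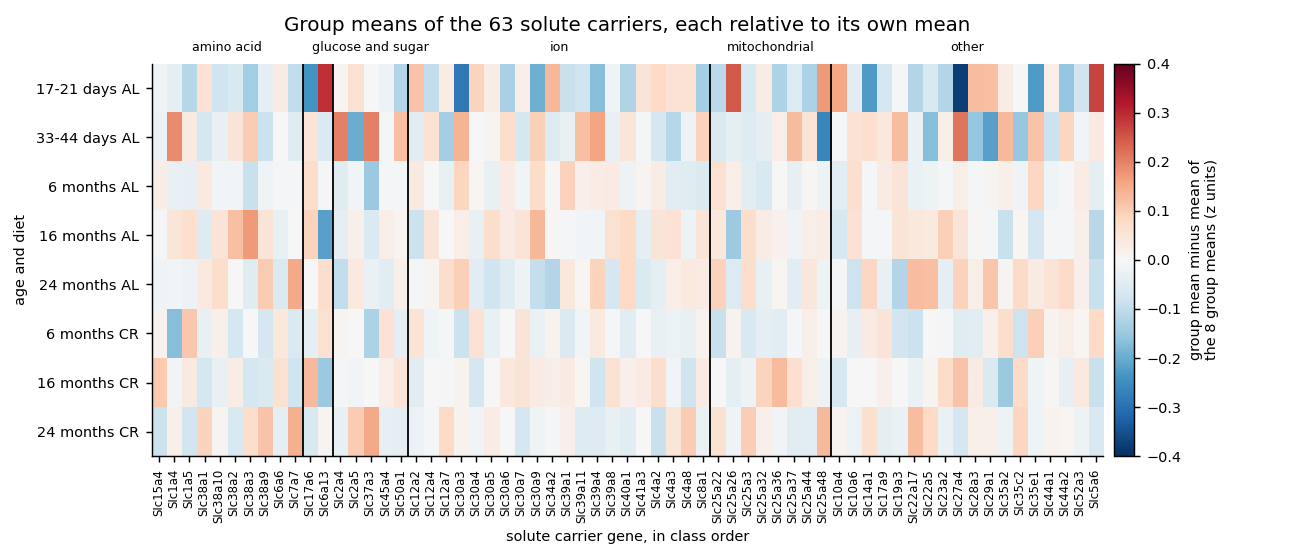
Mean of each carrier in the 8 groups of age and diet (rows), shown as the difference from the mean of its own 8 group means in z units (colour, red higher and blue lower); columns are the 63 carriers in class order, with the 2 neurotransmitter carriers between the amino acid and the sugar carriers. The strongest colours lie in the 2 youngest groups, which hold 5 arrays each, and the mean of Slc27a4 at 17-21 days is the lowest cell.

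Between 17-21 and 33-44 days, which spans weaning, 6 of the 63 carriers had an unadjusted p under 0.05, where 14.0% of all probes did. The largest of these differences belonged to Slc25a48, a mitochondrial carrier. Its values at 17-21 days were 0.14, 0.51, 0.56, 0.70 and 0.76, and at 33-44 days they were -0.48, -0.13, 0.31, 0.39 and 0.40. The groups overlapped, and the 2 lowest arrays were those of the later set, which has no array of 17-21 days. The difference was -0.45 (95% interval -0.79 to -0.11; adjusted p = 0.244, limma), and it was -0.18 within the earlier set. The 19 spots nearest to it on the filter had a median difference of -0.26, and 17 of them had the same sign. The part of the array set and of filter position in this difference was not tested.

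Slc2a5 (GLUT5), a fructose carrier that in the brain is found mainly in microglia, had values of 0.00, 0.02, 0.21, 0.28 and 0.37 at 17-21 days. At 33-44 days they were -0.35, -0.31, -0.07, 0.12 and 0.19, again with the 2 arrays of the later set lowest. The 24 spots nearest to Slc2a5 on the filter had a median difference of -0.22, and 19 of them had the same sign as Slc2a5. The part of filter position was not tested. For Slc2a5 itself the difference was -0.27 (95% interval -0.50 to -0.05; adjusted p = 0.291), -0.10 within the earlier set and -0.17 without 33-44 days AL female replicate 2. The equilibrative nucleoside carrier Slc29a1, which takes up adenosine, differed by -0.35 (adjusted p = 0.314), by -0.07 within the earlier set and by -0.13 without the same array. The concentrative nucleoside carrier Slc28a3 differed by -0.28 (adjusted p = 0.322), and the zinc importer Slc39a4 and the zinc exporter Slc30a6 differed by 0.34 (adjusted p = 0.322) and 0.20 (adjusted p = 0.327). Within the earlier set these 3 differences were -0.06, 0.18 and 0.03, so each had the same sign and was smaller. Without 1 array, 33-44 days AL female replicate 1, Slc29a1 (-0.58, adjusted p = 0.0304) and Slc30a6 (0.32, adjusted p = 0.0479) were under 0.05 in limma, as were 5.22% of all probes. In that fit the females of 33-44 days are 1 array of the later set. It carries the weight of the sex and is assumed to vary like the other groups. All arrays of 17-21 days lie in the earlier set, so age and array set cannot be told apart in the females of this fit. The males of 33-44 days have 2 arrays in the earlier set and 1 in the later set, so age and array set are partly mixed in them too. The largest difference of any carrier was that of Slc27a4 (FATP4), at 0.61 with an interval that reached 1.41, and its range over the later arrays lay wholly above that of the earlier ones.

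The promoter of Slc2a5 is shown because this carrier had a low unadjusted p in both comparisons of the youngest mice. It lies at chr4:150119094-150119393 on the plus strand of GRCm38.p6 and runs from 250 bases before the RefSeq start of the gene to 50 bases after it; the capitals mark the GC box letters GGGCGG on either strand, which occur 3 times.
Slc2a5: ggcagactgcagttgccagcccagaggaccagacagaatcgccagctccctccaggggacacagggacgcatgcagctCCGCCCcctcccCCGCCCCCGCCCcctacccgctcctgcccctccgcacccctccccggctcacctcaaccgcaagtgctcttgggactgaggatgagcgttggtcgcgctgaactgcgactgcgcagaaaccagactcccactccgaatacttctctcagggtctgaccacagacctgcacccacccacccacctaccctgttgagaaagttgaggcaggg

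From 33-44 days to 6 months in AL mice, 1 of the 63 carriers had an unadjusted p under 0.05, where 5.31% of all probes did. This was Slc2a5 again, which lay between -0.15 and 0.34 (median 0.18) in the 10 arrays of 6 months, within which the 2 lowest arrays of 33-44 days did not fall. The difference was 0.20 (95% interval 0.01 to 0.39; adjusted p = 0.931), with 0.04 within the earlier set, 0.37 within the later set and 0.09 without 33-44 days AL female replicate 2. It shares the group of 33-44 days with the difference of opposite sign above. The 24 spots nearest to Slc2a5 had a median difference of 0.07 here, and 17 of them had the same sign. Slc2a4 (GLUT4), the insulin-regulated glucose carrier, had values of -0.03, 0.00, 0.11, 0.14 and 1.40 at 33-44 days and lay between -0.13 and 0.18 at 6 months. A single array, male replicate 1, was far above the others, and the difference of -0.21 (adjusted p = 0.953) became 0.01 without it. Slc29a1 differed by 0.23 (adjusted p = 0.987), by 0.045 within the earlier set and by 0.004 without 33-44 days AL female replicate 2.

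In AL mice between 6 and 16 months, 1 of the 63 carriers had an unadjusted p under 0.05, where 3.04% of all probes did. The carrier was Slc38a3 (SNAT3), the system N carrier through which astrocytes release glutamine. It lay between -1.68 and -0.82 at 6 months (median -1.07, n = 10) and between -1.29 and 0.15 at 16 months (median -0.89, n = 9). The near-identical pair stood at 0.15, and the other arrays of 16 months lay between -1.29 and -0.74. The difference was 0.35 (95% interval 0.07 to 0.63; adjusted p = 0.999), and 0.13 without the pair. Slc38a2 (SNAT2), a system A carrier of neutral amino acids, behaved likewise: the pair stood at 0.72, the other arrays of 16 months between -0.41 and 0.13, and the difference of 0.21 was 0.04 without the pair. Slc25a32 differed by 0.095 (adjusted p = 0.999).

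**Figure D3:**
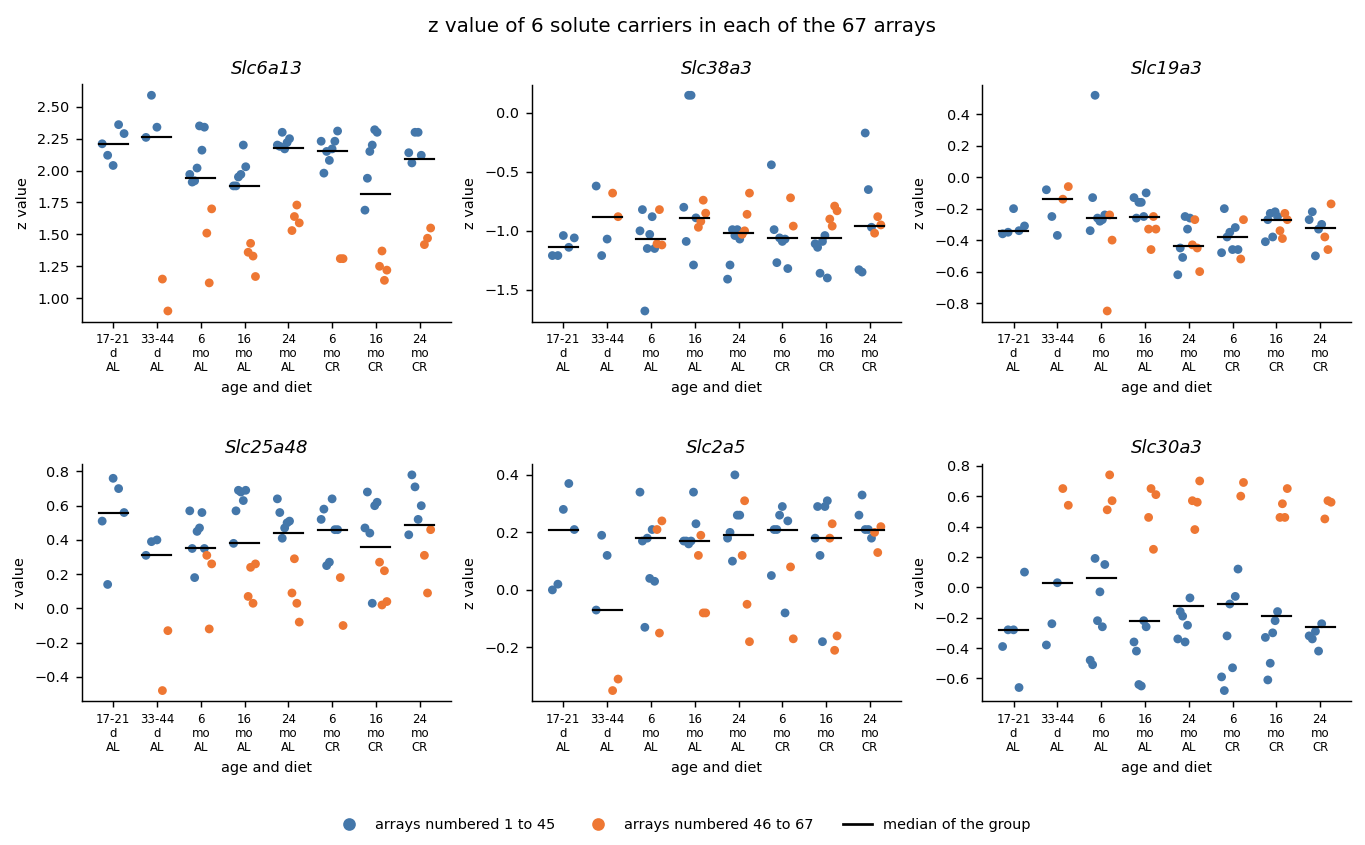
z value of 6 carriers (vertical axes) in each of the 67 arrays, by age and diet (horizontal axes); blue points are arrays numbered 1 to 45, orange points arrays numbered 46 to 67, and black lines the median of each group, with the near-identical pair counted once. The later arrays of Slc6a13 lie at or below 1.73, those of Slc30a3 lie above all earlier ones, and the near-identical pair of 16 months AL stands alone at 0.15 for Slc38a3.

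Between 16 and 24 months in AL mice, 4 of the 63 carriers had an unadjusted p under 0.05, where 6.57% of all probes did, and 32 of the 63 differences were positive. By class, the median difference was -0.01 for amino acid carriers, -0.06 for sugar carriers, -0.01 for ion carriers, 0.02 for mitochondrial carriers and 0.07 for the others, against -0.004 over all probes. The 2 neurotransmitter carriers had a median of 0.11. The smallest p belonged to Slc19a3, a thiamine carrier, which lay between -0.46 and -0.10 at 16 months (median -0.25, n = 9) and between -0.62 and -0.25 at 24 months (median -0.44, n = 10). The ranges overlapped, and the difference was -0.17 (95% interval -0.32 to -0.03; adjusted p = 0.670), with -0.23 in the earlier and -0.095 in the later set. Its 14 nearest spots on the filter had a median difference of -0.13, and 11 of them had the same sign.

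Slc39a8 (ZIP8), an importer of zinc and manganese, lay between 0.59 and 1.06 at 16 months (median 0.70) and between 0.50 and 0.71 at 24 months (median 0.62). The difference was -0.12 (95% interval -0.23 to -0.01; adjusted p = 0.685). All of its 19 nearest spots had the same sign, with a median of -0.11, and the difference was -0.01 once a smooth over the filter was taken out. Slc23a2 (SVCT2), the sodium-dependent vitamin C carrier of neurons, differed by -0.14 (adjusted p = 0.757), with -0.18 in the earlier set and -0.08 in the later set. Slc38a3 differed by -0.31 (adjusted p = 0.685), and by -0.09 without the near-identical pair at 16 months, which it shares with the comparison of 6 and 16 months. Among mitochondrial carriers the smallest p was that of Slc25a32, at -0.07, and at -0.04 without 24 months AL female replicate 1. Of its 24 nearest spots 22 had the same sign, with a median of -0.12.

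Slc6a13 (GAT2), a carrier of GABA and taurine known from the meninges and from liver and kidney, had the largest positive difference between 16 and 24 months, 0.26 (95% interval -0.12 to 0.64; adjusted p = 0.968). It lay between 1.17 and 2.20 at 16 months (median 1.88, n = 9) and between 1.53 and 2.30 at 24 months (median 2.18, n = 10), with each group split by the array set. At 6 months it lay between 1.12 and 2.35 (median 1.94, n = 10), and the differences from 6 to 16 and from 6 to 24 months were -0.18 and 0.08, so the group of 16 months was the lowest of the 3. In the earlier arrays alone it lay between 1.88 and 2.20 at 16 months and between 2.17 and 2.30 at 24 months. In the later arrays alone it lay between 1.17 and 1.43 and between 1.53 and 1.73. Within the later set the ages did not overlap, with a difference of 0.30, and within the earlier set they overlapped between 2.17 and 2.20, with a difference of 0.24. With the array set and the cycle of array numbers as a block, the same difference had an adjusted p of 0.0304 in limma, and Slc6a13 was 1 of the 92 probes (1.09%) under 0.05 in that fit. This rests on counting the near-identical pair as 2 samples: with the pair counted once, as the male or as the female, the adjusted p was 0.062 or 0.0941, and without the pair it was 0.17, while the difference was 0.26, 0.25 and 0.24. In these fits 0.521%, 0.509% and 0.154% of all probes were under 0.05. Its 14 nearest spots on the filter all had a positive difference, with a median of 0.19, and the difference was 0.06 (adjusted p = 0.548 with the block) once a smooth over the filter was taken out. In CR mice the difference between the same ages was 0.17 (adjusted p = 0.999), and the earlier arrays lay between 1.69 and 2.32 at 16 months and between 2.06 and 2.30 at 24 months. The later CR arrays lay between 1.14 and 1.37 at 16 months and between 1.42 and 1.55 at 24 months and did not overlap, with differences of 0.09 within the earlier and 0.22 within the later set.

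Markers of meninges were read beside Slc6a13 because this carrier is known from there. Of 9 such genes 6 were measured, and their summed z lay between 1.29 and 3.14 at 16 months (median 1.62) and between 1.26 and 3.71 at 24 months (median 1.88) in AL mice. Of the 6, 5 had a positive difference, with a median of 0.03, and 0 had an unadjusted p under 0.05 in limma. A z-score has no level that stands for absence, and the part of these cells in the values of Slc6a13 was not tested. The promoter of Slc6a13 at its most upstream RefSeq start, chr6:121300038-121300337 on the plus strand of GRCm38.p6, is shown because no other carrier had an adjusted p under 0.05 for adult age, diet or sex under any alternative, and this one had it only with the pair counted as 2 samples. The capitals mark the GC box letters GGGCGG, which occur 2 times.
Slc6a13: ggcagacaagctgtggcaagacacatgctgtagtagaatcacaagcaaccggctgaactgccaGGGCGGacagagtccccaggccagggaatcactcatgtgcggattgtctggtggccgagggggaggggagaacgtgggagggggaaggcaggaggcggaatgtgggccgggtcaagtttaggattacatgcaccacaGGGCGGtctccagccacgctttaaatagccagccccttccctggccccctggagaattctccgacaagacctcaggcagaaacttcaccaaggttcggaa

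Over the whole adult span from 6 to 24 months in AL mice, 1 of the 63 carriers had an unadjusted p under 0.05, where 2.89% of all probes did. This was Slc19a3, which lay between -0.85 and 0.52 at 6 months (median -0.26, n = 10). An array at 0.52, male replicate 2, and an array at -0.85 stood away from the others on either side. The difference was -0.17 (95% interval -0.31 to -0.02; adjusted p = 1.000), with -0.25 in the earlier and -0.005 in the later set, and -0.09 without male replicate 2. Slc39a8 differed by -0.10, and Slc22a5 (OCTN2), the carnitine carrier, differed by 0.145 (both adjusted p = 1.000).

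**Figure D4:**
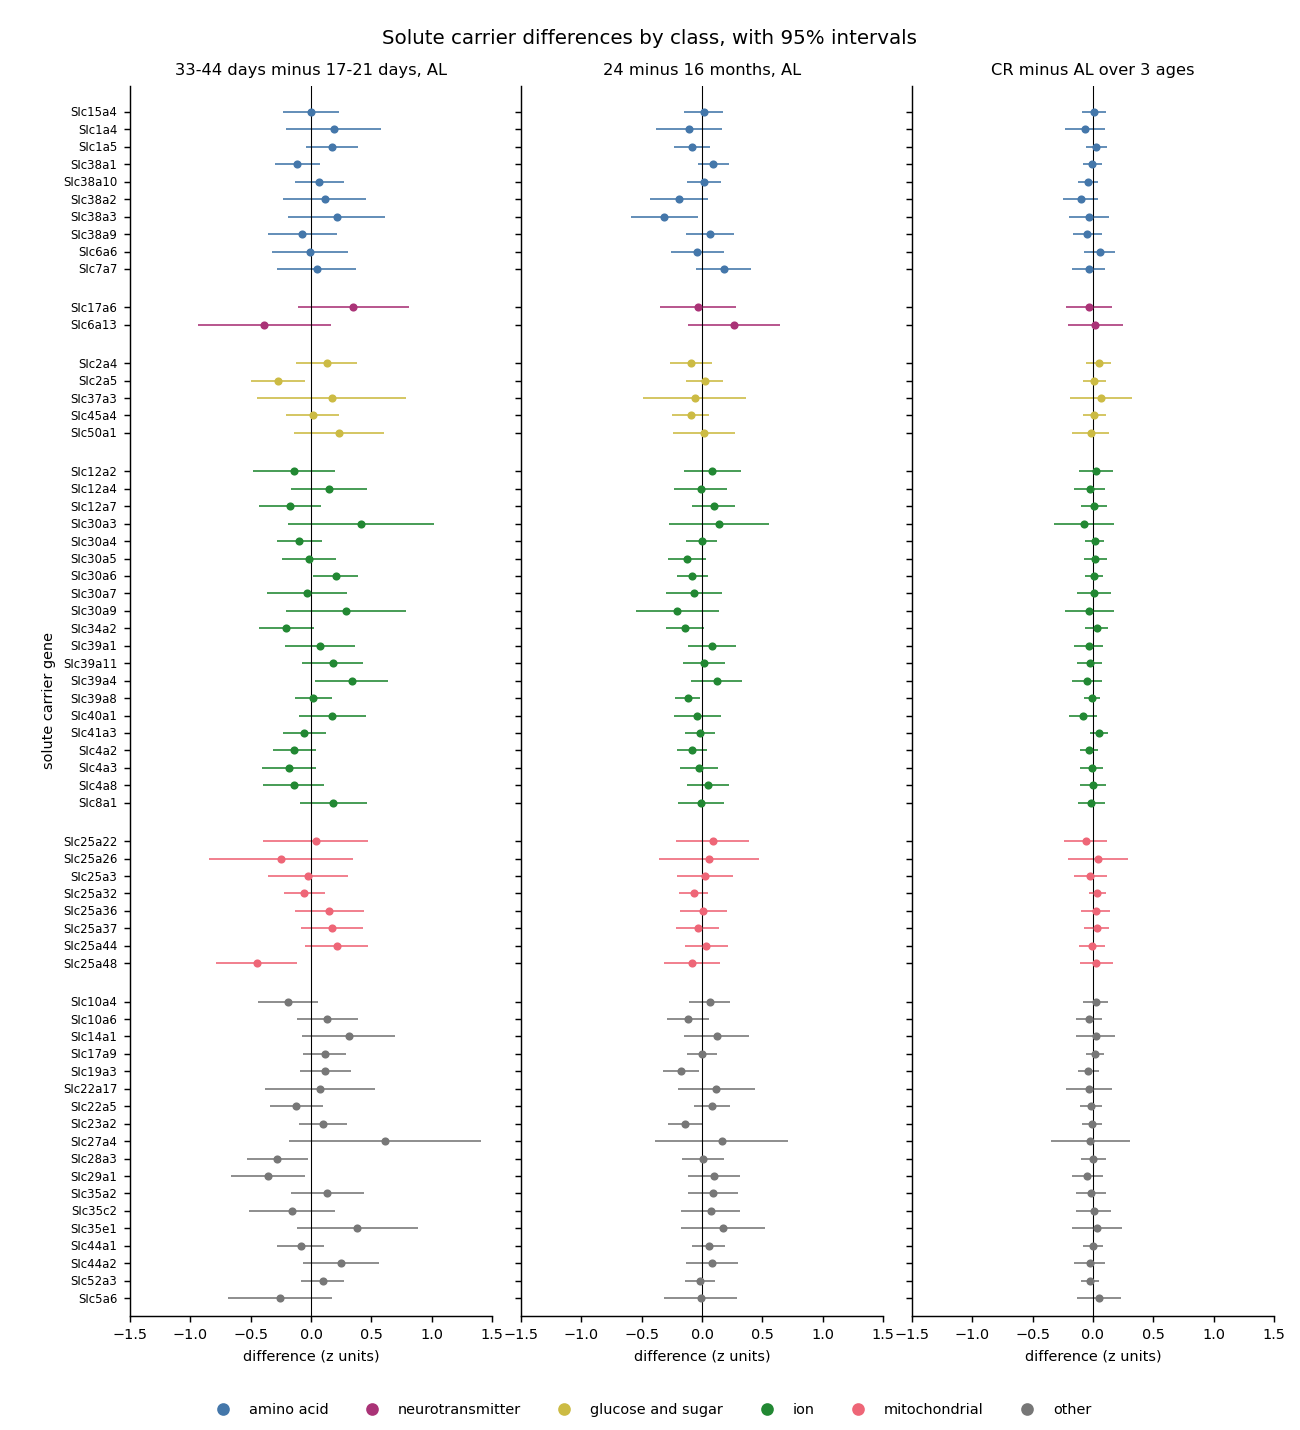
Difference of each of the 63 carriers (points, coloured by class) with its 95% interval (lines) between 33-44 and 17-21 days in AL mice, between 24 and 16 months in AL mice, and between CR and AL mice over 3 ages (horizontal axes, z units). Intervals are widest in the first panel, where the groups hold 5 arrays each, and narrowest in the third, where all 63 lie within 0.5 of 0.

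In CR mice the same ages were compared. Between 6 and 16 months, 2 of the 63 carriers had an unadjusted p under 0.05, where 2.33% of all probes did. Slc25a32, which brings folate and flavin into mitochondria, lay between -0.46 and -0.08 at 6 months (median -0.19, n = 9) and between -0.18 and 0.11 at 16 months (median -0.11, n = 10), a difference of 0.13 (adjusted p = 1.000). The ranges overlapped, and 20 of its 24 nearest spots had the same sign. Slc35a2, the UDP-galactose carrier of the Golgi, lay between -2.21 and -1.53 and between -2.54 and -1.78, a difference of -0.23 (adjusted p = 1.000). The next was the zinc exporter Slc30a4, at -0.13.

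Between 16 and 24 months in CR mice, 3 of the 63 carriers had an unadjusted p under 0.05, where 4.15% of all probes did. Slc4a2 (AE2), a chloride and bicarbonate exchanger, lay between -0.20 and 0.18 at 16 months (median 0.02, n = 10) and between -0.38 and 0.01 at 24 months (median -0.11, n = 8). The difference was -0.19 (95% interval -0.325 to -0.05; adjusted p = 0.999), and it was -0.17 in the earlier and -0.22 in the later set. Of the 24 spots nearest to Slc4a2, 20 had the same sign, with a median of -0.07. Slc15a4, a lysosomal carrier of histidine and peptides, lay between 0.05 and 0.52 and between -0.34 and 0.48, a difference of -0.22 (adjusted p = 0.999) that was -0.14 without 24 months CR male replicate 2. All of its 24 nearest spots had the same sign, with a median of -0.20, and the difference was -0.03 once a smooth over the filter was taken out. Slc38a1 (SNAT1), a system A glutamine carrier of neurons, lay between -0.01 and 0.26 (median 0.16) and between 0.03 and 0.48 (median 0.34), a difference of 0.16 (adjusted p = 0.999). It was 0.18 in the earlier and 0.14 in the later set, and 22 of its 24 nearest spots had the same sign. Both other probes of Slc38a1 had differences closer to 0 here, 0.06 and -0.03.

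A selection in the manner of the methods of the study, which requires an unadjusted p under 0.05 together with a positive mean z and a z-ratio beyond 1.5 in either direction, kept Slc15a4 (z-ratio -2.07) and Slc38a1 (z-ratio 1.56) in this comparison, where it kept 1.29% of all probes. It kept 0 of the 63 carriers between 16 and 24 months in AL mice, where it kept 2.04%. Between 6 and 24 months in CR mice, 1 of the 63 carriers had an unadjusted p under 0.05, where 3.42% of all probes did. This was Slc1a5 (ASCT2), a sodium-dependent exchanger of neutral amino acids, which lay between -0.43 and 0.29 (median -0.29, n = 9) and between -0.60 and -0.16 (median -0.32, n = 8). The difference was -0.17 (adjusted p = 1.000). The highest array of 6 months, male replicate 1 at 0.29, stood above the next at 0.01, and without it the difference was -0.10. Slc38a1 followed at 0.115 and Slc38a9, the lysosomal arginine carrier that reports amino acids to mTORC1, at 0.17 (0.11 without 24 months CR male replicate 3). Other probes of these genes stood at 0.07 and -0.06 for Slc38a1 and at -0.009 for Slc38a9.

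Diet was compared at each adult age. At 6 months 0 of the 63 carriers had an unadjusted p under 0.05 in limma, where 0.462% of all probes did, and 32 of the 63 differences of CR minus AL were positive. The smallest p values were those of Slc19a3 (-0.14), Slc1a5 (0.14) and Slc39a1 (-0.15), an importer of zinc. Without AL male replicate 2 Slc19a3 differed by -0.06, and without CR male replicate 1 Slc1a5 differed by 0.07. At 16 months 1 of the 63 had an unadjusted p under 0.05, where 1.03% of all probes did. It was Slc38a3, with CR arrays between -1.40 and -0.79 (median -1.06, n = 10) and a difference of -0.34 (95% interval -0.61 to -0.06; adjusted p = 1.000). Without the near-identical AL pair the difference was -0.12. Slc15a4 followed at 0.135, and at 0.06 without the pair. At 24 months 0 of the 63 had an unadjusted p under 0.05 in limma, where 1.04% of all probes did, and the smallest p values were those of Slc30a5 (0.105), Slc39a4 (-0.13) and Slc25a48 (0.145). Without CR male replicate 2 the last pair stood at -0.06 and 0.09.

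Over the 3 adult ages together, 0 of the 63 carriers had an unadjusted p under 0.05 for diet in limma, where 0.71% of all probes did. The differences ran from -0.10 for Slc38a2 to 0.07 for the sugar phosphate carrier Slc37a3, and from -0.12 for Slc30a3 and Slc27a4 to 0.13 for Slc37a3 without the near-identical pair. With all arrays every 95% interval lay within 0.35 of 0. The amino acid carriers had a median of -0.035 with 3 of 10 positive, the sugar carriers 0.01 with 4 of 5, the ion carriers -0.01 with 9 of 20 and the mitochondrial carriers 0.025 with 5 of 8. Over all probes the median was -0.001 and 49.5% were positive. Slc38a2 differed by -0.10 (95% interval -0.25 to 0.04; adjusted p = 1.000), with -0.18 in the earlier and 0.04 in the later set, and by -0.05 without the pair. At 16 months alone its diet difference of -0.17 was -0.003 without the pair. Ferroportin, Slc40a1, the exporter of cellular iron, differed by -0.08 (-0.05 without the pair) and Slc41a3 by 0.05 (both adjusted p = 1.000). In the other classes the smallest p belonged to Slc2a4 (0.05), Slc25a32 (0.035), Slc19a3 (-0.04) and the vesicular glutamate carrier Slc17a6 (VGLUT2, -0.04). The last stood at -0.08 without the pair and -0.008 without 6 months CR female replicate 3, and Slc19a3 at -0.01 without 6 months AL male replicate 2.

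Whether diet altered the difference between 6 and 24 months was tested as the difference of the differences, CR minus AL. Here 0 of the 63 carriers had an unadjusted p under 0.05 in limma, where 1.07% of all probes did. The smallest p was that of Slc19a3 at 0.22 ± 0.22 (95% interval; adjusted p = 1.000), with 0.30 in the earlier and 0.05 in the later set, and 0.14 without 6 months AL male replicate 2. Slc1a5 stood at -0.18, and at -0.11 without 6 months CR male replicate 1, and Slc38a1 at 0.12. Other probes of Slc38a1 stood at 0.14 and -0.16. Between the sexes over 6 adult groups, 1 of the 63 carriers had an unadjusted p under 0.05, where 0.971% of all probes did. This was Slc15a4, at 0.10 for female minus male (95% interval 0.001 to 0.194; adjusted p = 1.000), which the selection also kept (z-ratio 2.23), where it kept 0.651% of all probes. All of its 24 nearest spots had the same sign, and the difference was 0.05 once a smooth over the filter was taken out. Slc38a9 followed at 0.08 (-0.05 at its other probe) and the mitochondrial iron carrier Slc25a37 (mitoferrin 1) at 0.07.

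Some carriers with well known roles in the cortex had small p values in none of these comparisons. Slc12a2 (NKCC1), which brings chloride into cells, had group means between -0.88 ± 0.29 (SD, n = 9) at 16 months AL and -0.68 ± 0.13 (SD, n = 5) at 17-21 days. The array set held 68.9% of its variance, with a shift of -0.44 in the later arrays. Slc8a1 (NCX1), the sodium and calcium exchanger, ranged from -0.33 ± 0.18 (SD, n = 5) at 17-21 days to -0.10 ± 0.30 (SD, n = 5) at 33-44 days. Slc25a3, the mitochondrial phosphate carrier that feeds ATP synthase, ranged from -0.42 ± 0.29 (SD, n = 5) at 17-21 days to -0.26 ± 0.29 (SD, n = 8) at 24 months CR. Slc1a4 (ASCT1), a neutral amino acid exchanger of the family of glutamate carriers, ranged from -1.59 ± 0.29 (SD, n = 9) at 6 months CR to -1.23 ± 0.60 (SD, n = 5) at 33-44 days, where male replicate 1 stood at -0.19. Slc45a4 had the smallest p among the sugar carriers between 16 and 24 months in AL mice, at -0.09 (adjusted p = 0.988). It stood at -0.03 without 24 months AL male replicate 1 and at -0.04 without the near-identical pair. The range of the 8 group means was smaller than the SD within groups in Slc12a2 (0.20 against 0.27), Slc25a3 (0.16 against 0.26) and Slc45a4 (0.10 against 0.17), and about as large in Slc8a1 (0.23 against 0.22) and Slc1a4 (0.36 against 0.31). These SDs include the array set. With it fitted they were 0.14 in Slc12a2, 0.18 in Slc25a3, 0.15 in Slc45a4, 0.14 in Slc8a1 and 0.29 in Slc1a4. The ranges of Slc12a2, Slc8a1 and Slc1a4 exceed these, but the group means still hold the array set.

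Genes that work beside the carriers outside the family, namely subunits of sodium pumps and vacuolar proton pumps, chaperones, kinases and enzymes at the same steps, were read from a list of 38. Of these 16 were measured, 0 passed an adjusted p of 0.05 in limma in any of the 14 comparisons, and at most 1 had an unadjusted p under 0.05 in any comparison. Markers of cell types were sparse on the filter. Of neuronal markers 1 of 9 was measured, of astrocytic ones 3 of 8, of microglial ones 3 of 8 and of blood 2 of 6, while 0 were measured for oligodendrocytes, endothelium and choroid plexus. The summed z of the microglial markers was read beside Slc2a5. It lay between -0.08 and 0.34 at 17-21 days (median 0.21) and between -0.25 and 0.46 at 33-44 days (median 0.02). Of the 3 markers, 1 had a positive difference, with a median of -0.013, and 0 had an unadjusted p under 0.05 in limma. The part of these cells in the values of Slc2a5 was not tested.

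Promoter sequence was found in RefSeq for 47 of the 63 carriers, in 74 windows of 300 bases. The GC box letters GGGCGG, on either strand, occurred in 70.3% of these windows, in 64.0% of the windows of all genes named on the filter and in 35.7% of all promoters. The TATA box letters TATAAA occurred in 2.7%, 7.0% and 13.6%. The metal response letters TGCGCNC and TGCACNC, looked for because 9 of the carriers with a window move zinc, occurred in 33.3% and 25.0% of the 12 windows of Slc30 and Slc39 genes, against 27.4% and 12.5% in genes named on the filter. The median window of the carriers held 61.0% G and C, the same as that of the genes named on the filter. A match of letters is a description of the window and not a site.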

How the data were processed

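As the labels and methods describe, the authors radiolabelled cortical RNA of each mouse, hybridised it to a filter of cDNA probes and turned the log intensities of each array into a z-score, which is the deposited value. Which log base was used, and how background was handled, is not given in the sources used here. Symbols came from the platform annotation, and all 63 carriers matched RefSeq by gene number.

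Tests used limma 3.58.1 in R 4.3.3 on the deposited score, two-sided, with Benjamini-Hochberg adjustment over 8448 probes and a threshold of 0.05. The fit was tested on simulated data with independent noise for each value. Those data held no array sets, no near-identical pair and no shared deviation of nearby spots. The test therefore cannot show how the p values behave with these features. Replicates are different mice per the labels. For each comparison the 3 carriers with the smallest p were named, with the smallest p of each class in 2 comparisons and a list of carriers known from brain. The carriers, classes and lists were chosen with earlier results of these data known. The array sets, the near-identical pair and the filter layout (22 columns, 24 rows and 16 blocks) were found in the values. The number of arrays limits the precision. Promoter sequences were taken from RefSeq, build GRCm38.p6.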

Additional observations from a re-analysis of the deposited data

Results flagged for a closer look

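In 248 groups of the 31 named carriers, 18 arrays stood further from the rest of their group than a 95% limit allows. Chance alone would place about 1 in 20 independent groups there. Many of these carriers were named for small p values in the same data, and all share the same arrays. The rate is therefore no measure of excess here. Amino acid carriers held 6 of the 18, and the same near-identical pair stood out for both Slc38a2 and Slc38a3. The share of this class among the 31 was not worked out, so the 6 are not read as a trait of it. Slc38a3 stood at 0.15 in the near-identical pair of 16 months AL, where the rest lay between -1.29 and -0.74, and at -1.68 in 6 months AL male replicate 2, where the rest lay between -1.15 and -0.82. Slc38a2 stood at 0.72 in the same pair (rest -0.41 to 0.13) and at 0.36 in 6 months AL male replicate 5 (rest -0.33 to -0.07). Slc1a4 stood at -0.19 in 33-44 days AL male replicate 1 (rest -1.68 to -1.31) and at -0.50 in 16 months CR male replicate 4 (rest -1.69 to -1.14).

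The array 33-44 days AL male replicate 1 also held Slc2a4 at 1.40 (rest -0.03 to 0.14) and Slc4a2 at -0.57 (rest -0.14 to 0.03). It was the array farthest from its group over the carriers, with a mean distance of 0.389, and also over all probes, with 0.358. In it 20 carriers lay more than 0.5 from the mean of the rest. The share of all probes beyond 0.5 was not counted, so this is not read as particular to carriers. The sugar carrier Slc45a4 stood at -1.25 in 24 months AL male replicate 1 (rest -0.95 to -0.61).

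Among ion carriers, Slc30a4 stood at -0.51 in 24 months AL male replicate 2 (rest -0.25 to -0.05), and Slc30a5 at -0.21 in 17-21 days AL female replicate 1, where the rest all lay at -0.16, and at -0.76 in 16 months CR female replicate 4 (rest -0.38 to -0.03). Slc8a1 stood at -0.64 in 17-21 days AL female replicate 1 (rest -0.32 to -0.20), Slc40a1 at 0.82 in 24 months AL female replicate 4 (rest 0.15 to 0.47) and Slc41a3 at -1.73 in 16 months AL male replicate 5 (rest -1.32 to -1.09). The mitochondrial Slc25a32 stood at -0.29 in 17-21 days AL female replicate 2 (rest -0.11 to -0.05) and at -0.46 in 6 months CR female replicate 2 (rest -0.25 to -0.08). The thiamine carrier Slc19a3 stood at 0.52 in 6 months AL male replicate 2 (rest -0.85 to -0.13).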

How the results depend on the processing

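Each comparison was also run on quantile-normalized or median-centred values, on probes whose mean z exceeded 0, on the arrays of the compared groups alone, with the array set or the cycle of array numbers as a block, within each array set, with a smooth over the filter taken out, on every probe of a carrier, and without the near-identical pair or each of the 67 arrays in turn. The count of carriers with an adjusted p under 0.05 was 0 in every fit but 2. It was 1 between 16 and 24 months in AL mice with the cycle and the array set as a replicate block, and between 17-21 and 33-44 days it ran from 0 to 2 as 1 array at a time was left out, the 2 arising without 33-44 days AL female replicate 1, where that arm is 1 array. The count of 1 became 0 when, after seeing the data, the near-identical pair was counted once or left out under the same block. For the same comparison of 16 and 24 months, no other block moved a call. At an unadjusted p under 0.05 the counts of carriers moved more: 6 between 17-21 and 33-44 days became 0 to 17, 1 from 33-44 days to 6 months became 0 to 21, 4 and 3 between 16 and 24 months in AL and CR mice became 1 to 10 in each, 1 and 2 between 6 and 16 months became 0 to 5 and 0 to 7, 1 and 1 between 6 and 24 months became 0 to 7 and 0 to 10, and the diet, sex and interaction counts lay between 0 and 5. Of the named differences, 16 values changed sign. The difference of Slc2a4 from 33-44 days to 6 months ran from -0.338 to 0.012 as 1 array was left out. Within the later set the values were -0.10 for Slc38a2 and -0.07 for Slc25a32 (16 minus 6 months AL), 0.037 for Slc19a3 (diet at 6 months), 0.07 for Slc38a2 (diet at 16 months), 0.042, 0.046 and 0.054 for Slc38a2, Slc17a6 and Slc19a3 (diet over 3 ages) and -0.005 for Slc25a37 (sex). With the smooth they were 0.048 for Slc25a32 (24 minus 16 months AL, also with the block) and 0.013 for Slc39a8 (24 minus 6 months AL, 0.01 with the block), and Slc38a9 (sex) was -0.006 with both. Under the block without the pair, Slc38a2 stood at -0.015 (16 minus 6 months AL) and 0.016 (diet at 16 months). The causes were not tested. Between 17-21 and 33-44 days the later set gave no value, having no array of 17-21 days. The deposited score carries no intensity or background, so whether a carrier lay above background is not known here.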

Other observations

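Correlations between carriers were taken within groups and array sets. An array that was alone in its group and set had a deviation of 0 and added nothing to them, so they rest on fewer than the 67 arrays. Of the 10 highest correlations among 1953 pairs, 5 joined carriers whose spots both lie in row 1 of their block, where 6 of the 63 carriers lie. They included Slc38a9 with Slc25a3 (r = 0.90), Slc38a9 with Slc22a17 (r = 0.90) and Slc7a7 with Slc6a13 (r = 0.76), which belong to different classes and lie in different blocks. These correlations share arrays and filter position and are a description. The pair Slc38a2 and Slc38a3, glutamine carriers of 1 family in rows 11 and 21, had r = 0.77, and r = 0.66 without the near-identical arrays. The median correlation over all pairs was -0.01.

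The second probe of Slc38a10 differed by 0.445 between 17-21 and 33-44 days and by -0.57 from there to 6 months (adjusted p = 0.276 and 0.503, limma), where the probe with the higher mean differed by 0.07 and 0.003. Both differences of the second probe rest largely on 33-44 days AL male replicate 1, at 0.27 where the rest lay between -1.46 and -0.98: without it they were 0.20 and -0.32.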
